A study of Rattus norvegicus with 18 samples.

Results

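Glutamate receptors and the scaffold proteins that hold them at excitatory synapses were examined on whole-tissue arrays of rat hypothalamus, with fat as the contrast tissue. All probe sets annotated to a single one of 34 genes were taken: the AMPA, kainate, NMDA and delta receptor subunits, the metabotropic receptors, and the Homer, Shank and Dlg scaffolds. All 34 genes were on the array, with 64 of its 31042 probe sets that are not controls. 16 genes had 1 probe set and 18 had several. The 34 genes are among 14217 named genes, and each matched a gene symbol of the RefSeq GRCr8 annotation.

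The series has 18 arrays, 9 of subcutaneous abdominal fat and 9 of hypothalamus, with 3 arrays of each tissue in each of 3 groups. RYGB-Success rats were losing weight after Roux-en-Y gastric bypass (RYGB), surgery in which food is led from a reduced stomach past the upper gut. RYGB-Fail rats, by their group name treated with the same operation, were gaining weight. Pair-Fed rats received as much food as the treated rats, and the labels used here give no strain, age, sex or time after surgery for any group. The 3 arrays of a group are biological replicates per the series' design, but nothing ties an array to a named animal or the 2 tissues to 1 animal, so p-values measure the spread between these samples.

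Glutamate is the main fast excitatory transmitter of the brain. AMPA receptors carry most of the fast current at a synapse, kainate receptors modulate transmission on both sides of it, and NMDA receptors pass calcium when glutamate arrives at a depolarised cell. Metabotropic receptors act through G proteins: the group I receptor mGluR5, encoded by Grm5, raises intracellular calcium, while groups II and III mostly restrain release. Homer proteins tie mGluR5 to Shank, Shank ties that complex to the cytoskeleton, and Dlg proteins such as PSD-95 (Dlg4) anchor NMDA receptors and, through partner proteins, AMPA receptors. In the hypothalamus, glutamate inputs to feeding neurons are known to change with fasting and refeeding.

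The arrays fitted their tissue labels. Averaged over 12 neuron marker genes, the log2 signal was 11.39 to 11.84 on the hypothalamus arrays and 5.40 to 7.14 on the fat arrays. Median signals were 91.1 to 127 in hypothalamus. Fat arrays had medians from 98.2 upwards, the highest being 288 on RYGB-Fail replicate 3, whose median correlation with the other fat arrays was 0.730. The signal ratio of 3' to 5' beta-actin control probe sets, a sign of RNA quality and of how far labelling reached, spanned 6.65 to 179 in hypothalamus, with the lowest value on RYGB-Success replicate 3. In fat it was 2.46 on RYGB-Fail replicate 3 and 12.0 to 24.3 on the others.

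Of the 34 genes, 29 had at least 1 probe set among the upper 60% by mean log2 signal in hypothalamus and were tested there, through 43 probe sets. The 5 that did not pass were Grik3, Grin3a, Grin3b, Grm8 and Homer2. The 21 untested probe sets had signals of 1.66 to 156, a range in which such signals scatter widely on a log scale. For counts, each gene is represented by 1 probe set, the one of highest mean signal there. Levels of different genes are not set against each other, because probe sets differ in how strongly they bind.

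Against Pair-Fed rats, RYGB-Success rats had lower mean hypothalamic signals of the mGluR5 gene Grm5, the AMPA subunits Gria2 and Gria3, the kainate subunit Grik2 and the scaffold Shank2, and none of these differences passed the threshold. After adjustment over all 18625 probe sets tested (limma, Benjamini-Hochberg), 0 of the 29 genes passed at 0.05, against 0.0107% of all probe sets. At an unadjusted p under 0.05, 7 of the 29 were found, 6 lower and 1 higher in RYGB-Success. Of all probe sets tested, 6.2% were lower and 6.94% higher at that limit, together 13.1%. The arrays of both groups did not overlap for 8 of the 29, 7 of them lower. Without overlap, 7.28% of all probe sets were lower and 10.8% higher, together 18%. In all, 18 genes had a lower and 11 a higher mean in RYGB-Success, with 45.6% of all probe sets below 0. The median difference was -0.20 log2 over the 29 genes and 0.05 over all probe sets.

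That median moved with single arrays. Without RYGB-Success replicate 2 it was 0.01, with 14 genes lower and 15 higher, and without RYGB-Success replicate 1 it was -0.30. Centring each array on its median shifted all probe sets by -0.24 in this comparison, and the 29 genes then had a median of -0.44, with all probe sets at -0.19.

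Grm5 (probe set 1393665_at) had the lowest p of the 29. Its signals were 6285, 7585 and 8363 in Pair-Fed, 6162, 4936 and 6188 in RYGB-Fail, and 4430, 2685 and 2012 in RYGB-Success. Every RYGB-Success array lay below every array of the other groups, and every RYGB-Fail array lay below every Pair-Fed array. The log2 difference between RYGB-Success and Pair-Fed was -1.35 ± 0.25 (SE, 3 arrays against 3), 2.55-fold lower, with an adjusted p of 0.173 by limma. Across the alternatives the adjusted p ran from 0.0233 to 0.768. It was under 0.05 when arrays were centred on their medians, where the difference was -1.59 and the adjusted p was 0.0486. It was also under 0.05 without RYGB-Success replicate 1, at -1.66 with an adjusted p of 0.0233. At an unadjusted p under 0.05, 14% of all probe sets were lower under median centring. Without that array 6.95% were, against 6.2% in the main fit. For Grm5, the difference between RYGB-Fail and Pair-Fed was -0.36 ± 0.25. Between RYGB-Success and RYGB-Fail it was -0.99 ± 0.25 with an adjusted p of 0.784. A second Grm5 probe set (1369355_at) did not pass the filter, at signals of 3.63 to 14.9, so these values rest on 1 probe set.

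**Figure D1:**
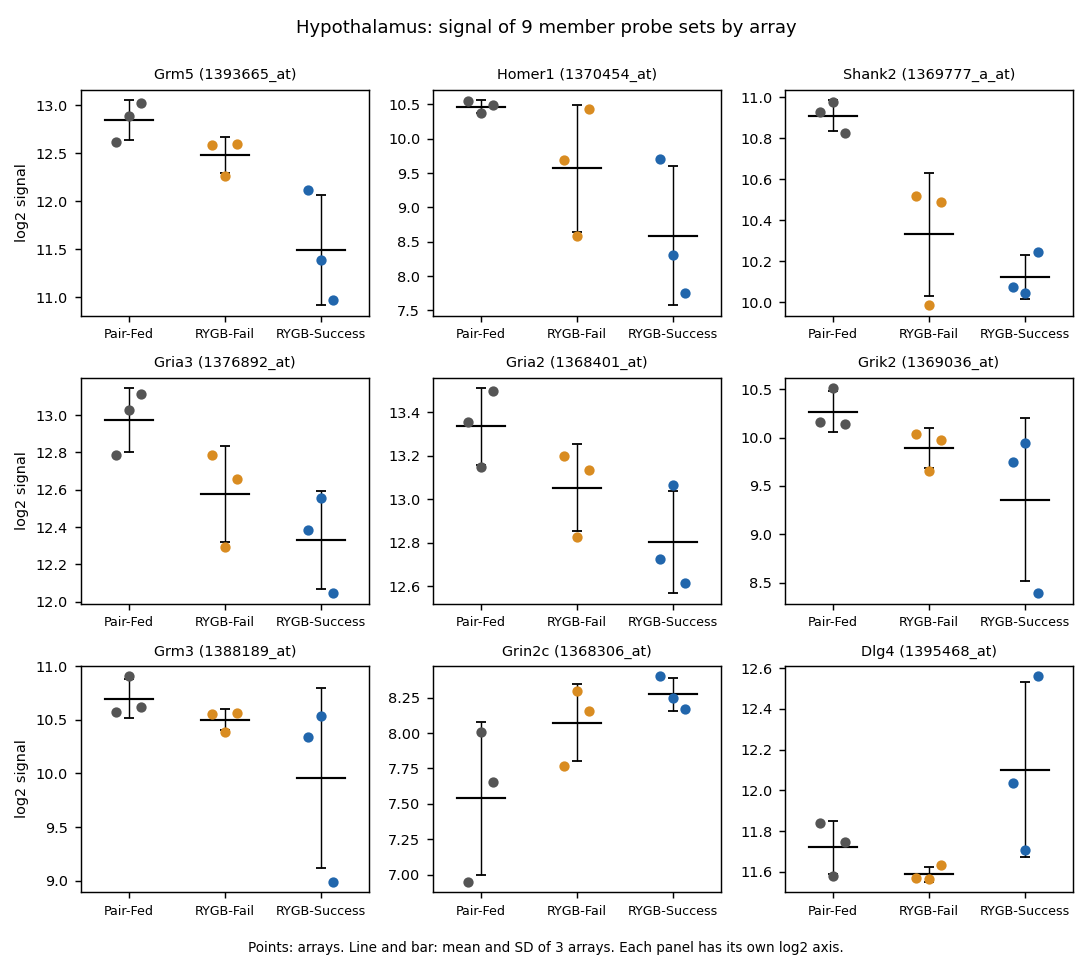
Each panel plots the log2 signal of 1 probe set on the 9 hypothalamus arrays by group, with points for arrays and a line and bar for the mean and SD of 3 arrays. Grm5, Homer1 (1370454_at), Shank2, Gria2, Gria3, Grik2 and Grm3 have all 3 RYGB-Success arrays below all 3 Pair-Fed arrays. The Grik2 and Grm3 means of RYGB-Success are also drawn down by 1 array.

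The base sequence before a transcript start is shown for Grm5, Homer1 and Grik2, which were chosen after their values were seen because their lowest-p probe sets are described in full here. The RefSeq promoter table (GRCr8) held 20 of the 34 genes, these and also Grin2c, Dlg4 and Grm6, which held no match and are not printed. The 250 bases before the start that the table uses were searched on both strands for TGACG, the core of the cAMP response element bound by CREB, with CGTCA as its reverse complement. Capitals mark a match, and no other motif was searched. The Grm5 stretch lies at chr1:150733503-150733752 (plus strand), Homer1 at chr2:26278762-26279011 (plus strand) and Grik2 at chr20:54415284-54415533 (minus strand). Those of Homer1 and Grik2 end at the annotated edge of the gene. That of Grm5 lies inside the gene, which RefSeq places at chr1:150722711-151297585, since the start that the table uses is not the gene's outermost one.
Grm5: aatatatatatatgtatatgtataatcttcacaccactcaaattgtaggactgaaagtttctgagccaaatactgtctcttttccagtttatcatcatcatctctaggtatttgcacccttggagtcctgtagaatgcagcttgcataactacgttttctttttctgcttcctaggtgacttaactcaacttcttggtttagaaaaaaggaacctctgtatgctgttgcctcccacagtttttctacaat
Homer1: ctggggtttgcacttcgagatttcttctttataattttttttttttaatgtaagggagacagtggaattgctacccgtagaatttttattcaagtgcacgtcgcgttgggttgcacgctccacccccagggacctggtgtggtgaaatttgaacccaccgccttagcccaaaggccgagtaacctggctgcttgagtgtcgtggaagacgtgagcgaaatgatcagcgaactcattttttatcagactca
Grik2: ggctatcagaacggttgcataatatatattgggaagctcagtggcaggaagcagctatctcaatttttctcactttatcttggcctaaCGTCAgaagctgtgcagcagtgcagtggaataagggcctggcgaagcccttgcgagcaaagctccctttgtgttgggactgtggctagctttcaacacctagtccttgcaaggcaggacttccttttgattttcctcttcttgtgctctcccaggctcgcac
Of these 3, only the Grik2 stretch held a match, which starts 162 bases before the start. Among the 20 covered genes, 2 held at least 1 match, Grik2 and Grin1, where 18.2% of all 33469 promoters in the table did. A match is a description of the letters and not of a bound site.

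All 4 AMPA subunits had lower means in RYGB-Success than in Pair-Fed, also under quantile normalization and median centring. Gria2 sets whether the channel passes calcium. Its brighter probe set (1368401_at) read 10478, 9083 and 11563 in Pair-Fed, 9393, 7263 and 8987 in RYGB-Fail, and 6773, 8564 and 6267 in RYGB-Success. The RYGB-Success arrays all lay below the Pair-Fed arrays, and RYGB-Fail overlapped both. The difference of RYGB-Success from Pair-Fed was -0.53 ± 0.18 (adjusted p = 0.275, limma). On a second Gria2 probe set (1387171_at) the signals were 4292, 4655 and 4942 in Pair-Fed and 3527, 3595 and 1097 in RYGB-Success, again without overlap. There the difference was -0.94 ± 0.37, and RYGB-Success replicate 3 alone was far below the rest.

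Gria3, another AMPA subunit, gave 7054, 8343 and 8854 in Pair-Fed, 7060, 5014 and 6458 in RYGB-Fail, and 5354, 6032 and 4222 in RYGB-Success on probe set 1376892_at. Again RYGB-Success did not overlap Pair-Fed, at -0.64 ± 0.20 (adjusted p = 0.238, limma). A dimmer Gria3 probe set (1368691_at) differed by -1.72 ± 0.67 at signals of 21.1 to 210.4, more than 1 log2 beyond the brighter one. Gria1 differed by -0.52 ± 0.26 with overlapping groups. Gria4 differed by -0.24 ± 0.20 on its brightest probe set and by up to 0.17 in the other direction on the rest, so its direction depended on the probe set.

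Among the kainate subunits, 3 of the 4 tested had lower means in RYGB-Success. Grik2, which forms the core of many kainate receptors, read 1142, 1457 and 1127 in Pair-Fed, 1051, 808 and 1006 in RYGB-Fail, and 858, 984 and 335 in RYGB-Success. Both bypass groups lay wholly below Pair-Fed. The difference of RYGB-Success from Pair-Fed was -0.91 ± 0.34 (adjusted p = 0.301, limma), and without RYGB-Success replicate 3 it was -0.42. Grik1 differed by -1.11 ± 0.59 at low signals of 14.8 to 113, and Grik4 and Grik5 by 0.45 ± 0.39 and -0.20 ± 0.49.

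The NMDA subunits showed no shared direction, with 3 of the 5 tested lower and 2 higher. Grin2c, a subunit of receptors with weak magnesium block, was the only member above Pair-Fed on every RYGB-Success array at an unadjusted p under 0.05. It read 124, 258 and 202 in Pair-Fed, 218, 314 and 285 in RYGB-Fail, and 338, 304 and 288 in RYGB-Success. The difference from Pair-Fed was 0.73 ± 0.30 (adjusted p = 0.342, limma). Grin2d, of similar kind, differed by 0.48 ± 0.26, with RYGB-Success arrays at 2404, 1449 and 2943 and Pair-Fed arrays at 1452, 1767 and 1459, which overlap. Grin1, the subunit every NMDA receptor needs, differed by -0.02 ± 0.32. Grin2a and Grin2b, the subunits that set channel kinetics, differed by -0.40 ± 0.74 and -0.64 ± 0.67 at signals of 29.6 to 278 and 19.3 to 195. Errors of that size leave a decrease of more than 1 log2 unresolved for both, and for Grin2a also an increase of that size. A second, dimmer Grin2a probe set differed by 0.024, in the other direction.

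Metabotropic receptors other than Grm5 varied in direction. Grm3, a group II receptor also made by astrocytes, read 1521, 1919 and 1575 in Pair-Fed, 1505, 1342 and 1515 in RYGB-Fail, and 1293, 1489 and 509 in RYGB-Success. All bypass arrays lay below all Pair-Fed arrays, and the difference of RYGB-Success was -0.74 ± 0.33 (adjusted p = 0.364, limma). Without RYGB-Success replicate 3, it was -0.26. The group III receptors Grm4, Grm6 and Grm7 and the group II receptor Grm2 had higher means in RYGB-Success, by 0.28 to 0.82, at signals of 28.4 to 303 and with overlapping groups. The delta receptor Grid1 differed by 0.52 ± 0.54.

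Shank2 was the scaffold with the lowest p. Its brighter probe set (1369777_a_at) read 1948, 2012 and 1816 in Pair-Fed, 1469, 1014 and 1436 in RYGB-Fail, and 1079, 1057 and 1213 in RYGB-Success. Every bypass array of either outcome lay below every Pair-Fed array. The difference of RYGB-Success was -0.79 ± 0.21, 1.73-fold lower, with an adjusted p of 0.215 by limma. A second Shank2 probe set (1369776_a_at), at signals of 22.2 to 146, differed by 0.19 ± 0.71, and the mean over both was -0.30. Shank1 differed by -0.23 ± 0.23 on its brighter probe set and 0.62 ± 0.50 on a dim one, and Shank3 by 0.40 ± 0.31.

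**Figure D2:**
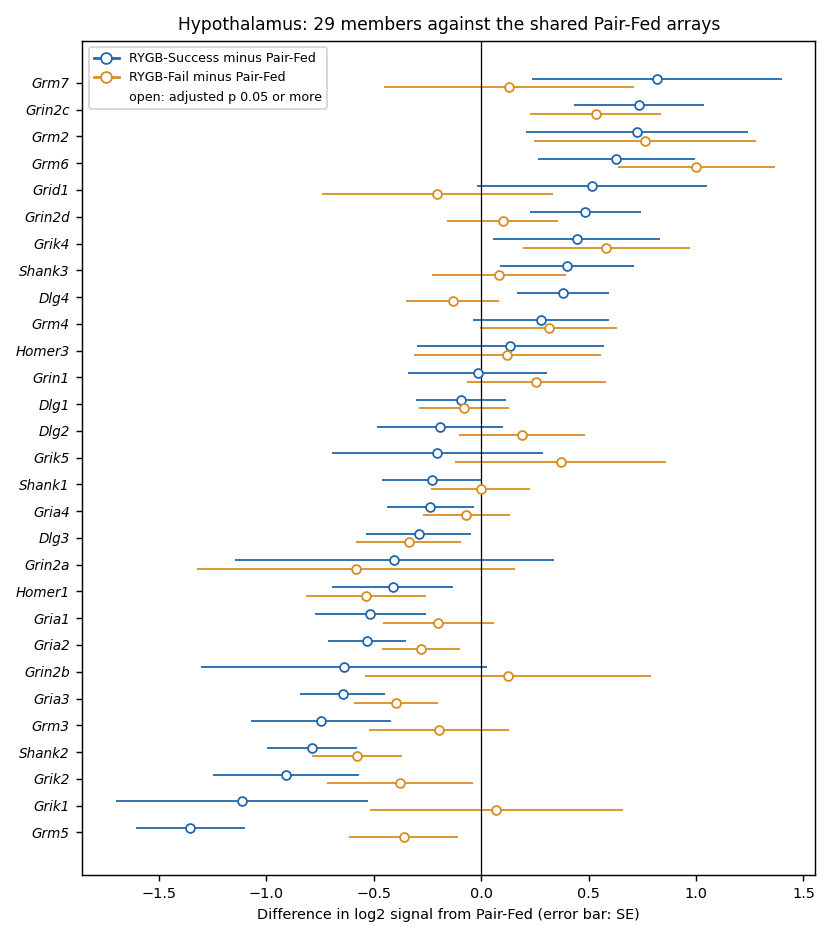
Log2 differences from Pair-Fed in hypothalamus are plotted for the 29 tested genes, 1 probe set each, for RYGB-Success and RYGB-Fail, with bars for the SE. Open points mark adjusted p-values of 0.05 or more, which all points have, and Grm5 lies lowest at -1.35 in RYGB-Success.

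Homer1, whose long forms join mGluR5 to Shank and whose short form is induced by neuronal activity and loosens that link, gave different sizes of difference on its 4 tested probe sets. Which transcript form each probe set reads was not determined. The brightest (1368318_at) read 3048, 2655 and 2981 in Pair-Fed, 2194, 1352 and 2668 in RYGB-Fail, and 1994, 1628 and 3155 in RYGB-Success, with an overlapping difference of -0.41 ± 0.28. Probe set 1370454_at read 1500, 1320 and 1431 in Pair-Fed, 826, 385 and 1379 in RYGB-Fail, and 837, 316 and 215 in RYGB-Success. On it every RYGB-Success array was below every Pair-Fed array, by -1.88 ± 0.47 (3.68-fold lower, adjusted p = 0.215, limma).

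On a dimmer Homer1 probe set, 1370997_at, the signals were 199.7, 333 and 461 in Pair-Fed, 156, 65.1 and 194 in RYGB-Fail, and 151, 120.2 and 79.6 in RYGB-Success. All bypass arrays lay below all Pair-Fed arrays, at -1.47 ± 0.44 for RYGB-Success and -1.32 ± 0.44 for RYGB-Fail. The fourth (1370656_a_at) differed by -0.48 ± 0.33 in RYGB-Success. All 4 probe sets had means below Pair-Fed in both bypass groups, by -0.41 to -1.88 in RYGB-Success and by -0.12 to -1.32 in RYGB-Fail. These comparisons share the Pair-Fed arrays. Homer3 differed by 0.14 ± 0.44.

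**Figure D3:**
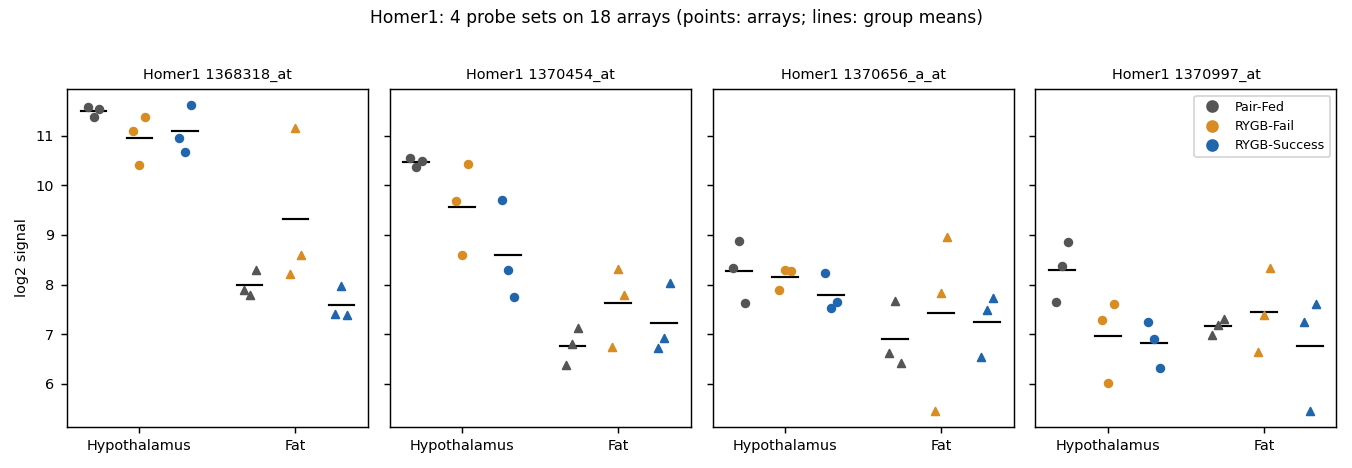
The log2 signal of the 4 Homer1 probe sets is plotted on all 18 arrays by tissue and group, with lines for group means. On 1370454_at the Pair-Fed hypothalamus arrays lie close together, at 1320 to 1500 before the log, and the RYGB-Success arrays spread from 215 to 837. In fat, RYGB-Fail replicate 2 stands far above the rest on 1368318_at.

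None of the 4 Dlg scaffolds passed between RYGB-Success and Pair-Fed, and 3 had lower means. Dlg4 (PSD-95, probe set 1395468_at) read 3660, 3060 and 3433 in Pair-Fed, 3038, 3029 and 3171 in RYGB-Fail, and 4201, 3342 and 6038 in RYGB-Success. RYGB-Success lay above RYGB-Fail on every array and overlapped Pair-Fed. The differences were 0.38 ± 0.21 from Pair-Fed and 0.51 ± 0.21 from RYGB-Fail (adjusted p = 0.784, limma), and a second, dimmer Dlg4 probe set differed by -0.14 ± 0.29 from Pair-Fed. Dlg1 (SAP97) and Dlg2 (PSD-93) differed by -0.09 ± 0.21 and -0.19 ± 0.29. The 3 Dlg3 (SAP102) probe sets ran from -0.91 to 0.50, with the brightest at -0.29 ± 0.24.

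RYGB-Fail rats stood nearer to Pair-Fed rats. Of the 29 genes 0 passed (0% of all probe sets), and 2 had an unadjusted p under 0.05, where 2.39% of all probe sets did. The groups did not overlap for 4 genes, all lower. Without overlap were 9.18% of all probe sets in either direction, and 3.36% of all probe sets were lower without overlap. The median over the 29 genes was -0.0023 and that over all probe sets 0.03. Shank2 differed by -0.58 ± 0.21 and Grm6, a group III receptor, by 1.00 ± 0.37, each with an adjusted p of 1.00 (limma). Grm6 read 97.7, 85.6 and 183 in Pair-Fed against 178, 300.3 and 229.9 in RYGB-Fail, which overlap. Of the other low p-values, Gria3, Homer1, Gria2 and Grin2c differed by -0.40 ± 0.20, -0.54 ± 0.28, -0.28 ± 0.18 and 0.53 ± 0.30. Gria1, Grin1 and Grik2 differed by -0.20, 0.26 and -0.38, and Grin2a and Grin2b by -0.58 and 0.13. Probe sets of Gria4 and Dlg4 differed in sign.

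Between RYGB-Success and RYGB-Fail, 0 of 29 passed, against 0.00537% of all probe sets, and 2 had an unadjusted p under 0.05, Grm5 and Dlg4, against 6.01%. The groups did not overlap for 3 of 29, against 10.5%. Median centring shifted this comparison by -0.12 over all probe sets. Grik1, Grik2, Grm3 and Grin2d had differences of -1.18 ± 0.59, -0.53 ± 0.34, -0.55 ± 0.33 and 0.38 ± 0.26. Gria1, Gria2 and Gria3 differed by -0.32, -0.25 and -0.25, and Shank3 by 0.32. Probe sets of Gria4, Homer1, Shank1, Shank2, Dlg1, Dlg3 and Dlg4 differed in sign or by more than 1 log2. Grm5 read lower on each RYGB-Success array than on each RYGB-Fail array, as given above.

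Genes around the receptors were taken from lists of glutamate handling, receptor partner proteins and other postsynaptic proteins. In RYGB-Success against Pair-Fed, 0 passed in each list (limma), against 0.0107% of all probe sets. Of the 10, 13 and 17 genes tested, 3, 2 and 3 had an unadjusted p under 0.05, against 13.1% of all probe sets. Of 10 glutamate release, uptake and synthesis genes, 5 were lower and 5 higher, with a median of -0.01. Slc17a6, the vesicular glutamate transporter VGLUT2 that most hypothalamic glutamate neurons use, differed by 0.72 ± 0.25, and Slc17a7, the VGLUT1 transporter typical of cortex, by -0.95 ± 0.42. Slc1a2, the main astrocyte glutamate transporter, differed by -0.73 ± 0.32.

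Of 13 auxiliary and trafficking proteins, 10 were lower and 3 higher, with a median of -0.37. The lowest p-values were those of Neto1, a kainate receptor partner, at -1.60 ± 0.43, and Cacng3, an AMPA receptor partner, at -1.08 ± 0.32. Of 17 other postsynaptic density proteins, 13 were lower, with a median of -0.31. Baiap2, a scaffold of the actin cytoskeleton, differed by -1.12 ± 0.35, Cnksr2 by -1.09 ± 0.37 and the adhesion protein Nlgn1 by -0.65 ± 0.24.

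Markers of brain regions differed between the groups in the same samples. Genes typical of cortex and striatum had lower means in RYGB-Success for 11 of 11 tested, with a median of -0.95. Their summed signal was 7408 to 11700 in Pair-Fed, 3150 to 11550 in RYGB-Fail and 3670 to 6846 in RYGB-Success. Neurod2, a factor of cortical excitatory neurons, differed by -2.14 ± 0.62, and Adora2a, a receptor of striatal neurons, by -1.54 ± 0.67. Genes typical of hypothalamus had higher means for 12 of 13, with a median of 0.96, and summed to 9715 to 15533 in Pair-Fed, 15290 to 25091 in RYGB-Fail and 19492 to 38227 in RYGB-Success. In these lists 0 genes passed (limma), with 4 of 11 and 10 of 13 at an unadjusted p under 0.05. Of all probe sets, 6.2% were lower and 6.94% higher at that limit, together 13.1%, and 45.6% had a difference below 0. The neuropeptide genes Hcrt and Pmch differed by 3.13 ± 0.49 and 1.83 ± 0.34. The 11 tested neuron markers had a median of -0.07, with 6 lower and 5 higher.

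Members were also computed with the mean level of the cortex and striatum markers as a covariate. Grm5 then differed by -0.98 ± 0.29 between RYGB-Success and Pair-Fed, Shank2 by -0.60 ± 0.26 and Homer1 on 1370454_at by -0.93 ± 0.44, each with an adjusted p of 0.768 (limma). Over all alternatives the adjusted p ran from 0.0712 to 0.768 for Shank2 and from 0.0598 to 0.768 for that Homer1 probe set. Of the 29 genes, 14 were lower and 15 higher, with a median of 0.06, where all probe sets had a median of 0.04 and 45.7% were below 0. An unadjusted p under 0.05 was found for 2, both lower, against 1.84% of all probe sets that were lower. The marker level was itself lower in RYGB-Success than in Pair-Fed, so group and covariate are only partly separated in this fit. What the moved values owe to either was not tested. In whole tissue, fewer cells of a type and less RNA per cell cannot be told apart, nor can either be told from a difference in how much neighbouring tissue was dissected.

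Genes induced by neuronal activity had lower means in both bypass groups, for 7 of 8 tested in RYGB-Success (median -0.68) and 8 of 8 in RYGB-Fail (median -0.59), against 45.6% of all probe sets below 0 in either comparison. By limma 0 passed, and 3 and 2 had an unadjusted p under 0.05, against 13.1% and 2.39% of all probe sets. The transcription factor gene Egr2 differed by -2.09 ± 0.41 in RYGB-Success and -1.57 ± 0.41 in RYGB-Fail, and Nr4a1 by -1.43 ± 0.42 and -0.84 ± 0.42. Their part in the Homer1 values was not tested.

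**Figure D4:**
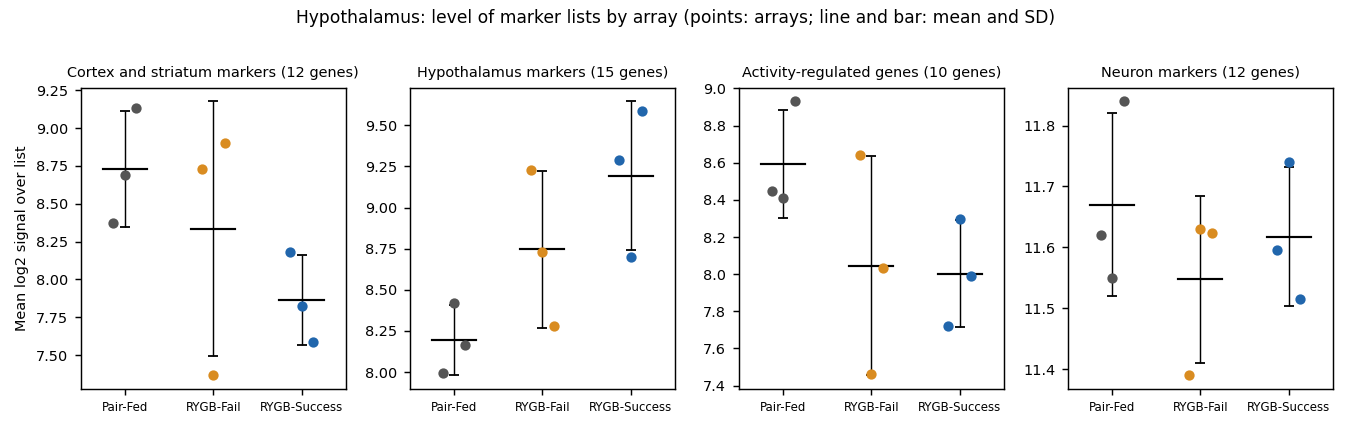
The mean log2 signal of 4 gene lists is plotted on each hypothalamus array by group, over all list genes on the array, with a line and bar for the mean and SD. The mean over cortex and striatum markers was 8.73 in Pair-Fed, 8.33 in RYGB-Fail and 7.87 in RYGB-Success, the hypothalamus markers ran the other way at 8.19, 8.75 and 9.19, and the neuron markers stayed between 11.55 and 11.67.

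Between tissues, most members were much higher in hypothalamus than in fat. Of 24 genes tested over all 18 arrays, 21 passed (limma), 19 higher and 2 lower in hypothalamus, against 65.2% of all probe sets, 28.2% higher and 37% lower. The arrays of both tissues did not overlap for 10 of the 24, all higher in hypothalamus. Without overlap were 26.9% of all probe sets in either direction, and 13.1% of all probe sets were higher without overlap. The median difference was 2.67 log2, against -0.17 over all probe sets. The filter used the mean over both tissues. The probe sets standing for Gria1, Grin1, Grik5, Grm6 and Shank1 passed the filter of hypothalamus and not that of fat. That of Grin3a passed in fat and not in hypothalamus. These 6 genes were thus tested through the tissue where the probe set read higher. With no filter, 28 of all 34 members passed, against 52% of all probe sets, and the median was 1.84. Median centring shifted all probe sets by 0.54 and quantile normalization by 0.18 in this comparison. Many fat signals lay near the low end of the scale, where no detection calls were used here, so folds are ratios of signals.

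Shank1 on 1396040_at read 1426 to 2413 in hypothalamus and 4.29 to 84.6 in fat, where this probe set did not pass the filter on low signals. Its fitted difference, 6.29 ± 0.50, was taken against fat signals not shown to be above background, and no fold is given. Another Shank1 probe set, 1387192_at, passed the filter in fat and not in hypothalamus. It read 4.55 to 138 in hypothalamus and 32.1 to 704 in fat, with a higher geometric mean in fat (89.8 against 45.8). Grm5 differed by 5.75 ± 0.29, with 2012 to 8363 in hypothalamus and 28.9 to 214 in fat. It passed the filter in both tissues, but its geometric mean in fat was 92.3, where the filter lay at 88.9. That of Grik2, given below, was 92.6. The filter ranks signals and does not test detection, so these fat signals are not shown to be above background either. Gria3, Grin2d and Dlg4 differed by 4.45 ± 0.30, 3.55 ± 0.30 and 3.46 ± 0.22. Gria1 and Grin1 differed by 4.11 ± 0.47 and 3.46 ± 0.47. Their probe sets, like 1396040_at of Shank1, did not pass the filter in fat. Both differences were thus taken against fat signals not shown to be above background, and their size is not settled. Grik2, Homer1 and Gria2 differed by 3.31 ± 0.42, 2.88 ± 0.30 and 2.79 ± 0.22, and Grm3, Shank3 and Dlg1 by 1.74 ± 0.45, 1.12 ± 0.24 and 0.75 ± 0.17. The adjusted p of each was 0.00232 or lower.

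Grin3a, an NMDA subunit that lowers calcium flow, and Dlg2 were lower in hypothalamus than in fat. Grin3a differed by -1.71 ± 0.57 (adjusted p = 0.0135, and 0.0143 with no filter, limma) at signals of 7.82 to 156 in hypothalamus and 29.5 to 526 in fat. Dlg2 differed by -1.07 ± 0.24 (adjusted p = 0.000737, limma), with 363 to 759 in hypothalamus and 607 to 2937 in fat, which overlap. Under median centring Dlg2 differed by -0.53 with an adjusted p of 0.110, and over all alternatives the adjusted p ran from 9.05e-05 to 0.110. Grin2a, Homer3 and Grin2b did not pass, at 0.15 ± 0.73, 0.03 ± 0.36 and -0.24 ± 0.50. Probe sets of 1 gene could disagree: Gria3 gave 4.45 and -0.05, the 4 Homer1 probe sets gave 0.24 to 2.88, and those of Gria4 and Dlg1 also disagreed.

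**Figure D5:**
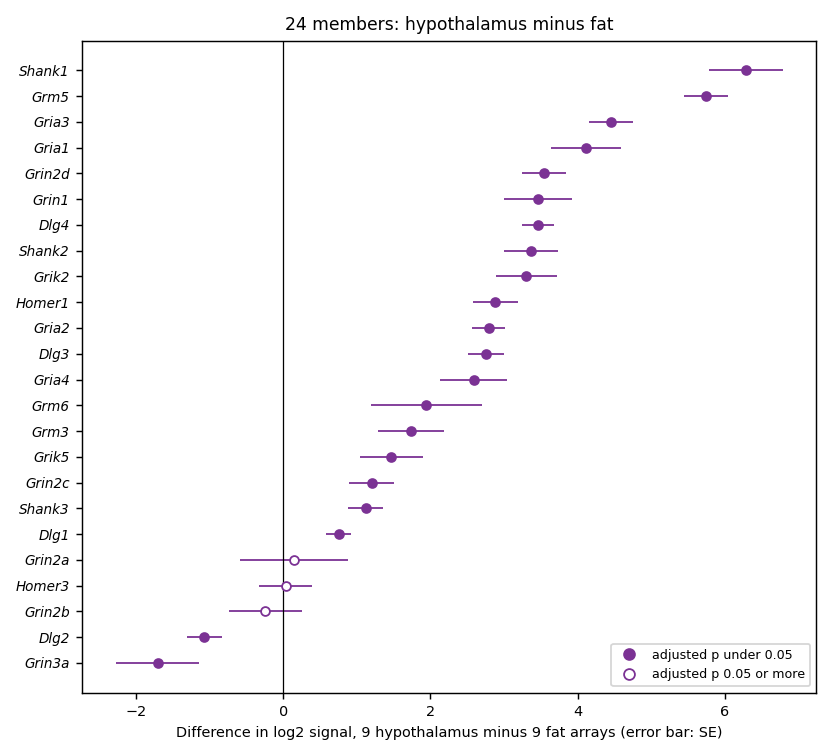
The log2 difference between 9 hypothalamus and 9 fat arrays is plotted for 24 genes, 1 probe set each, with bars for the SE and filled points for adjusted p-values under 0.05. Shank1, whose plotted probe set failed the filter in fat, and Grm5 lie farthest to the right, above 5, and only Grin3a and Dlg2 have filled points below 0. The plotted probe sets of Gria1, Grin1, Grik5 and Grm6 also failed the filter in fat, and that of Grin3a failed it in hypothalamus.

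Within fat, 22 members passed the filter on low signals and 0 passed the test in each comparison (0% of all probe sets). At an unadjusted p under 0.05 there was 1 member between RYGB-Success and Pair-Fed (4.86% of all probe sets), 0 between RYGB-Fail and Pair-Fed (2.69%) and 2 between RYGB-Success and RYGB-Fail (5.69%). Dlg4 read 649, 267 and 791 in Pair-Fed and 152, 232 and 275 in RYGB-Success, which overlap slightly, a difference of -1.27 ± 0.50. The groups did not overlap for 3 members in that comparison (18.6% of all probe sets), for 0 between RYGB-Fail and Pair-Fed (6.9%) and for 1 between RYGB-Success and RYGB-Fail (7.87%). Grin3b and Shank2 differed by 2.07 ± 1.00 and 1.53 ± 0.89 between the same groups. Tested probe sets of Gria2, Gria3, Homer1 and Dlg3 disagreed in at least 1 of the fat comparisons. The 35 untested probe sets of fat had signals of 1.27 to 546.

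Homer1 (1368318_at) was high on 1 fat array. It read 238, 222 and 315 in Pair-Fed, 295, 2283 and 389 in RYGB-Fail, and 169, 249 and 168 in RYGB-Success. RYGB-Fail differed by 1.33 ± 0.65 from Pair-Fed, and RYGB-Success by -1.74 ± 0.65 from RYGB-Fail. The array at 2283, RYGB-Fail replicate 2, also had the highest summed signal of 8 skeletal muscle markers, 187089, against 366 to 892 in Pair-Fed, 49404 and 3013 on the other RYGB-Fail arrays, and 941 to 2162 in RYGB-Success. With the mean muscle marker level as a covariate, Homer1 differed by -0.53 ± 1.11 between RYGB-Fail and Pair-Fed. Dlg2 and Grin3a differed by -0.72 ± 0.47 and -1.33 ± 0.87 between RYGB-Fail and Pair-Fed, and Grin3a and Dlg3 by 1.91 ± 0.87 and 1.01 ± 0.57 between RYGB-Success and RYGB-Fail. With the muscle covariate Grin3a turned to 1.68 ± 1.37 and -0.29 ± 1.11 in these comparisons and Dlg3 to -0.13 ± 0.79, and the member medians were 2.31 and -1.04. The summed muscle signal was higher on every RYGB-Fail array than on any other fat array. Group and muscle level are therefore poorly separated in these fits, and the turned signs settle no direction.

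Calls between RYGB-Success and RYGB-Fail in fat moved with RYGB-Fail replicate 3. Without it, 6 of 22 members passed between RYGB-Success and RYGB-Fail, against 5.99% of all probe sets, each higher in RYGB-Success: Gria4 at 2.88 ± 0.55, Grin2a at 4.26 ± 1.02, Grin3a at 3.11 ± 0.52, Grm3 at 2.71 ± 0.45, Grm8 at 2.43 ± 0.61 and Shank2 at 2.46 ± 0.64, with adjusted p-values of 0.0151 to 0.0464 (limma). The other RYGB-Fail arrays had median signals of 102 and 98.2, and the RYGB-Success arrays 163 to 200. With all arrays, median centring shifted all probe sets by -0.30 in this comparison and by -0.37 between RYGB-Success and Pair-Fed. The fit without replicate 3 was not centred, so the part of the array medians in its calls was not tested. With the 3' to 5' actin ratio as a covariate and RYGB-Fail replicate 3 kept, 4 passed, Gria4, Grin2a, Grin3a and Grm3, against 3.31%. Grin2a read 43.6 and 2.90 on RYGB-Fail replicates 1 and 2, 511 on replicate 3, and 100, 207 and 476 in RYGB-Success. The size of its difference thus leans on 1 signal at the low end of the scale. Grin3a read 29.5 and 40.3 on the other RYGB-Fail arrays, 420 on replicate 3, and 289, 175 and 526 in RYGB-Success. As given above, its difference between these groups was -0.29 with the muscle covariate and all arrays, and the muscle markers' part in the other 5 was not tested.

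Whether a group difference differed between tissues was tested for 18 members that passed the filter in both, and 0 passed in each of 3 comparisons (0% of all 15531 probe sets). At an unadjusted p under 0.05 there were 2, 1 and 1 members, against 8.26%, 3% and 6.45% of all probe sets. The lowest adjusted p was that of Dlg4 for RYGB-Success against Pair-Fed, 0.413 (limma), where hypothalamus minus fat was 1.65 ± 0.53. Without fat RYGB-Fail replicate 3, Gria4, Grm3 and Shank2 passed for RYGB-Success against RYGB-Fail, at -3.05 ± 0.55, -3.26 ± 0.57 and -2.67 ± 0.59, against 0.85% of all probe sets.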

How the data were processed

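Total RNA of 9 hypothalamus and 9 subcutaneous fat samples was amplified (NuGEN WT Ovation), labelled with biotin and hybridised to a 1-colour rat array, per the labels' protocols. What the authors deposited is 1 signal intensity for each probe set, on a linear scale. MAS5 and GCOS are named in the submitters' processing notes, and their versions are not given in the sources used here. The mean intensity after trimming 2% at each end was 500.1 to 500.2 on every deposited array. Detection calls were not used. Probe sets were named through the platform annotation when it gave exactly 1 symbol: 20832 did, 436 gave several and 9780 none.

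Values were taken to log2 without a pseudocount. A tissue's 18625 brightest probe sets by mean (the upper 60%) were tested with limma 3.58.1 in R 4.3.3 (lmFit, eBayes with trend), 2-sided, with Benjamini-Hochberg adjustment over all probe sets tested and a threshold of 0.05. The 3 groups of a tissue shared 1 estimate of spread. Tissue and interaction tests used all 18 arrays. Each gene stands by its probe set of highest mean. Of these steps, only a limma fit of RYGB-Success against Pair-Fed in each tissue was also run on simulated arrays. Figures used Python 3.11.15. The number of arrays and, for dim probe sets, the signal over background limit the precision, and no read depth applies.

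Genes named with values are the 6 members of lowest p in each hypothalamus comparison and the 3 in each fat comparison, 12 anchor genes, the 6 largest and 4 smallest tissue differences, genes whose tested probe sets differ in sign or by over 1 log2, and up to 3 genes of lowest p of a list; others were chosen after their values were seen. The members and gene lists were chosen with earlier results of these data known. Alternatives were median centring, quantile normalization, a pseudocount of 50, no filter or the upper 40%, eBayes without trend, fits of 2 groups, a replicate block, array weights, marker and actin ratio covariates, the mean over probe sets and leaving out each array.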

Additional observations from a re-analysis of the deposited data

How the results depend on the processing

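Of 1896 values of 87 named gene results under alternatives, 1825 kept their direction and side of the threshold, 66 reversed, 1 lost and 4 gained the call. No cause was tested. Hypothalamus, RYGB-Success against Pair-Fed: 1 member passed under median centring, and 0 to 1 when an array was left out (1 without RYGB-Success replicate 1). At an unadjusted p under 0.05, 14% of all probe sets were lower under median centring. Without that array 6.95% were, against 6.2% in the main fit. Array weights turned Grin2a to 0.029, and the cortex and striatum marker covariate turned Grin1 to 0.23 and Dlg1 to 0.16. Leaving out arrays gave Dlg1 -0.19 to 0.054, Grin1 -0.28 to 0.35, Grin2a -1.08 to 0.079 and Grin2b -1.26 to 0.41. RYGB-Fail against Pair-Fed: Shank3 was -0.029 with median centring, -0.35 with array weights and -0.019 with the marker covariate, Grin2a 0.40 with array weights, Grin2b -0.36 and Grm3 0.14 with the actin covariate, and Dlg1 0.038 with the marker covariate. Leaving out arrays gave Dlg1 -0.26 to 0.090, Grin1 -0.0020 to 0.63, Grin2a -1.35 to 0.27, Grin2b -0.13 to 0.31 and Shank3 -0.12 to 0.48. RYGB-Success against RYGB-Fail: Homer1 was -7.3e-05 with median centring, -0.18 with array weights and -0.34 as the mean of probe sets, Grin2a -0.38 with array weights, Dlg1 0.089 with array weights, 0.12 with the marker covariate and 0.11 as the mean of probe sets, and Homer1 on 1370997_at 0.38 with the marker covariate. Leaving out arrays gave Dlg1 -0.18 to 0.16, Gria3 on 1368691_at -1.18 to 0.25, Grin2a -0.67 to 0.94, Grin2b -1.39 to 0.28, Homer1 -0.16 to 0.33, Homer1 on 1370997_at -0.62 to 0.17 and Shank3 -0.083 to 0.55. Fat: with the muscle covariate, RYGB-Fail against Pair-Fed gave Homer1 -0.53, Grin3a 1.68 and a member median of 2.31, RYGB-Success against RYGB-Fail gave Grin3a -0.29, Dlg3 -0.13 and a median of -1.04, and RYGB-Success against Pair-Fed a median of 1.16. That last median was 0.019 in the upper 40%. RYGB-Success against RYGB-Fail called 4 members with the actin covariate and 0 to 6 when an array was left out, and its interaction 0 to 3, the highest counts without RYGB-Fail replicate 3. Tissues: the median was 1.84 with no filter, and Dlg2 lost its call under median centring. Grin2b was 0.30 with median centring, 0.13 with quantile normalization, 0.22 with array weights and 0.047 in Pair-Fed arrays only, Homer3 -0.00799 with the pseudocount and -0.30 in Pair-Fed arrays only, and Grin2a -0.13 with the pseudocount. Leaving out arrays gave Grin2a -0.48 to 0.76, Grin2b -0.46 to 0.13 and Homer3 -0.16 to 0.19. With the replicate block, 0 members passed in each treatment comparison, and Grm5 had an adjusted p of 0.268 (limma). Between tissues 21 of 24 passed, as without the block, where 65.2% of all probe sets did. Deviations of same-numbered samples correlated at -0.163 to 0.070 within hypothalamus (0 of 9 pairs over 0.1), -0.126 to 0.290 within fat (3 of 9) and -0.059 to 0.204 between tissues (4 of 9, against 1 of 18 for unlike numbers). As not every pair was over 0.1 in any of these, the numbers were not taken to pair the samples. Signal over background limits the dim probe sets, whose signals scatter most.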
